A study of Rattus norvegicus with 6 samples.

Results

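Laminin chains and integrin subunits were examined in regenerated rat sciatic nerve. They were taken as every row of the count table whose symbol names a laminin alpha, beta or gamma chain (Lama, Lamb, Lamc) or an integrin alpha or beta subunit (Itga, Itgb). This gave 38 of 23091 rows, 11 laminin and 27 integrin, for 37 symbols, because Itgae has 2 entries. The animals were male wild-type (WT) Sprague-Dawley rats with a sciatic nerve defect. In the NC group (3 libraries) the wound was closed and nothing was implanted. In the other group (3 libraries, called implant 1 to implant 3) a GDNF-Gel/HA-Mg conduit, which carries glial cell line-derived neurotrophic factor, was placed in the defect. Messenger RNA of the regenerated tissue was sequenced from poly(A)-selected libraries. The labels give neither the age of the rats, nor the time after surgery, nor whether each library came from its own animal, so p-values measure the spread between these samples only.

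Laminins are the cross-shaped trimers of 1 alpha, 1 beta and 1 gamma chain from which basement membranes are built. In peripheral nerve, each Schwann cell and axon unit is wrapped in such a membrane, whose main trimer joins Lama2, Lamb1 and Lamc1, while perineurium and vessels hold trimers with other alpha chains. Integrins are the alpha-beta pairs through which cells hold on to laminin, collagen and fibronectin. Leukocytes carry a set of their own, which binds mainly to other cells, and these are described apart from the matrix-binding subunits.

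The libraries held 15897850 to 18491379 counts, of which the members took 0.365% to 0.989%. Haemoglobin took 1.02% to 25.2% of the counts and was highest in NC 3. Schwann cell markers were found in every library (Sox10 at 21.8 to 243 CPM, counts scaled to a common library size), as were endothelial, fibroblast and macrophage markers. The summed level of 10 myelin markers was 1079, 38496 and 2650 CPM in NC 1, NC 2 and NC 3. It was 15851, 1018 and 19375 CPM in implant 1, implant 2 and implant 3, so that both groups held libraries rich and poor in myelin RNA. In bulk tissue, fewer cells of a type and less RNA per cell cannot be told apart. Gene length was not used, so CPM is compared between libraries for 1 gene and never between genes.

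No laminin chain and no integrin subunit passed the test between the groups. The filter on low counts left 35 of the 38 rows, and edgeR's quasi-likelihood test, with p-values adjusted by Benjamini-Hochberg over all genes, called 0 of them higher and 0 lower. Over all 13999 genes tested it also called 0 (0%). The adjusted p was 1.0 for each of the 35. DESeq2 called none of the 35 and 11 of the 13999 genes (0.0786%). At an unadjusted p under 0.05, edgeR found 1 member, Itgal, and 241 of all genes (1.72%). With any 1 library left out this count was 2 to 5 members, the most without NC 2 (Itgal, Itgam, Itgb2, Itga4 and Lamb3), and 175 to 574 of all genes. Of the 35 log2 fold changes, 22 were positive and 13 negative with a median of 0.09, against 6586 positive of 13999 genes and a median of -0.01. The standard error of these fold changes had a median of 0.35, against 0.23 over all genes tested. The 95% interval excluded a 2-fold difference for 15 of the 35 members and for 9208 of the 13999 genes. It excluded a 4-fold difference for 31 members and for 12356 genes.

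**Figure D1:**
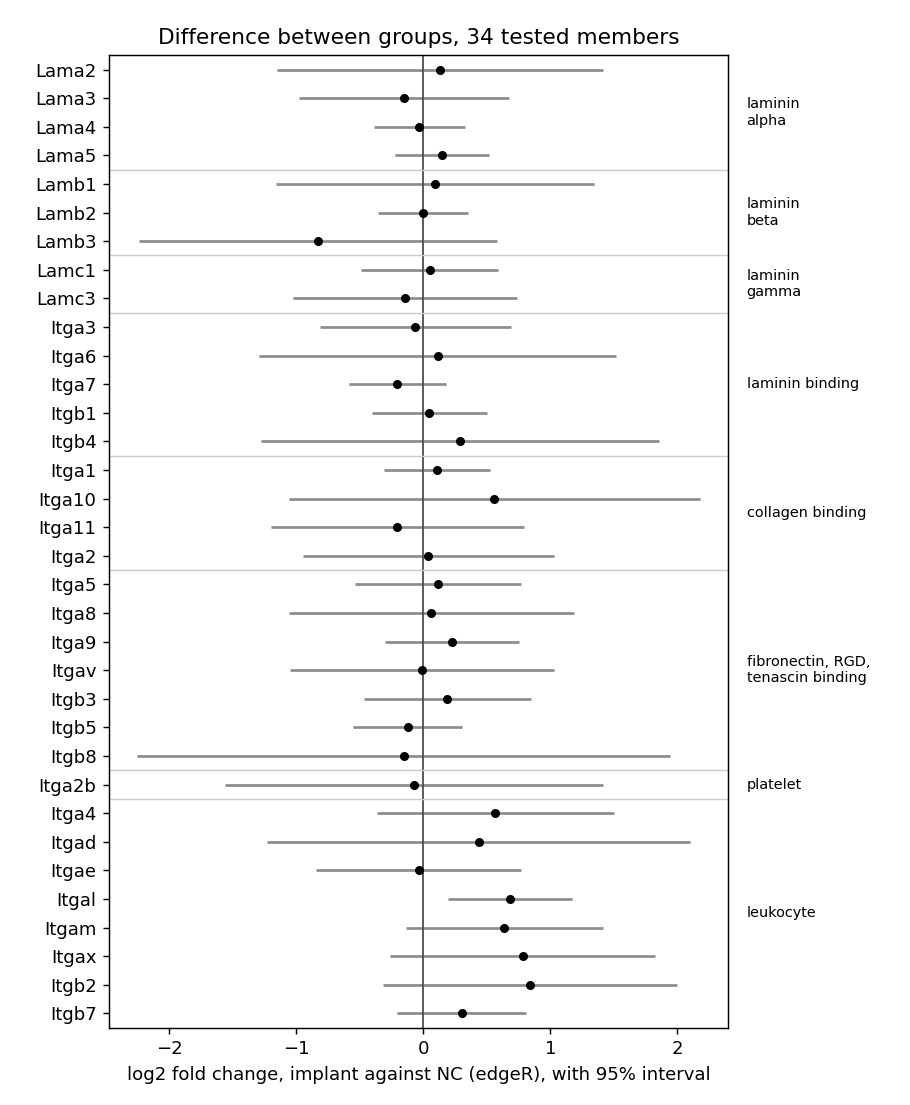
The log2 fold change of 34 tested members (points, implant against NC) is drawn with its approximate 95% interval (bars), in the order of their roles. Of those drawn, only the interval of Itgal, from 0.19 to 1.17, lies wholly on one side of 0, and its adjusted p was 1.0.

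The laminin alpha chains differed in how evenly they were expressed over the libraries. Lama4 is an alpha chain of vessel and perineurial membranes. It stood at 457, 475 and 416 CPM in the NC libraries against 467, 391 and 461 in the implant libraries. The highest of these 6 values was 1.22 times the lowest, and the groups overlapped. Lama2 (ENSRNOG00000011134) is the alpha chain of the main trimer of the Schwann cell membrane. It stood at 265, 473 and 123 CPM in the NC libraries against 412, 188 and 341 in the implant libraries. It was highest in NC 2 and lowest in NC 3, a span of 3.83-fold within the NC group alone. Its log2 fold change was 0.13 with a 95% interval from -1.16 to 1.41, so a difference of either sign and over 2-fold in size was within the error.

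Lama5, a chain of mature vessel and epithelial membranes, averaged 99.8 ± 12.8 CPM (SD, n = 3) in NC libraries and 110 ± 12.6 (n = 3) in implant libraries. This gave a log2 fold change of 0.14 ± 0.15 (SE; edgeR unadjusted p 0.380, adjusted p 1.0). Lama3, best known from epithelial membranes, stood at 27.3, 37.8 and 27.6 CPM in the NC libraries against 24.4, 17.3 and 41.7 in the implant libraries. The lowest and the highest library both belonged to the conduit group, and the log2 fold change was -0.15 ± 0.34 (edgeR unadjusted p 0.671, adjusted p 1.0). Lama1, a chain of embryonic membranes, was below the filter, with 5, 3 and 9 counts in the NC libraries against 18, 46 and 7 in the implant libraries.

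Among the beta chains, Lamb2 was the most even of the 35 members and Lamb1 was not even. Lamb2, found at synapses and in vessel and perineurial membranes, stood at 534, 529 and 460 CPM in the NC libraries against 515, 467 and 536 in the implant libraries, a span of 1.17-fold. The 95% interval of its log2 fold change, -0.01, ran from -0.36 to 0.35. Lamb1 (ENSRNOG00000005678), the beta chain of the Schwann cell membrane, stood at 267, 740 and 251 CPM in the NC libraries against 579, 267 and 494 in the implant libraries. NC 2 was highest, implant 1 and implant 3 followed, and the remaining 3 libraries lay close together near the lowest value. Its log2 fold change was 0.09 ± 0.51 (edgeR unadjusted p 0.865, adjusted p 1.0).

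Lamb3, a beta chain of epithelial anchoring membranes, had few counts. It stood at 4.05, 2.31 and 10.9 CPM in the NC libraries against 3.57, 3.31 and 2.77 in the implant libraries. NC 3 stood above the other 5 libraries, which lay between 2.31 and 4.05 CPM. The log2 fold change was -0.83 ± 0.58 (edgeR unadjusted p 0.199, adjusted p 1.0) and was 0.01 without NC 3.

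Among the gamma chains, Lamc1 was more even over the libraries than Lamc3. Lamc1, part of nearly every laminin trimer, stood at 622, 806 and 587 CPM in the NC libraries against 810, 550 and 724 in the implant libraries, a span of 1.47-fold, and its log2 fold change of 0.05 had a 95% interval from -0.49 to 0.59. Lamc3 averaged 14.8 ± 3.55 CPM in NC libraries and 13.4 ± 5.42 in implant libraries (both n = 3), with a log2 fold change of -0.14 ± 0.36 (edgeR unadjusted p 0.704, adjusted p 1.0).

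**Figure D2:**
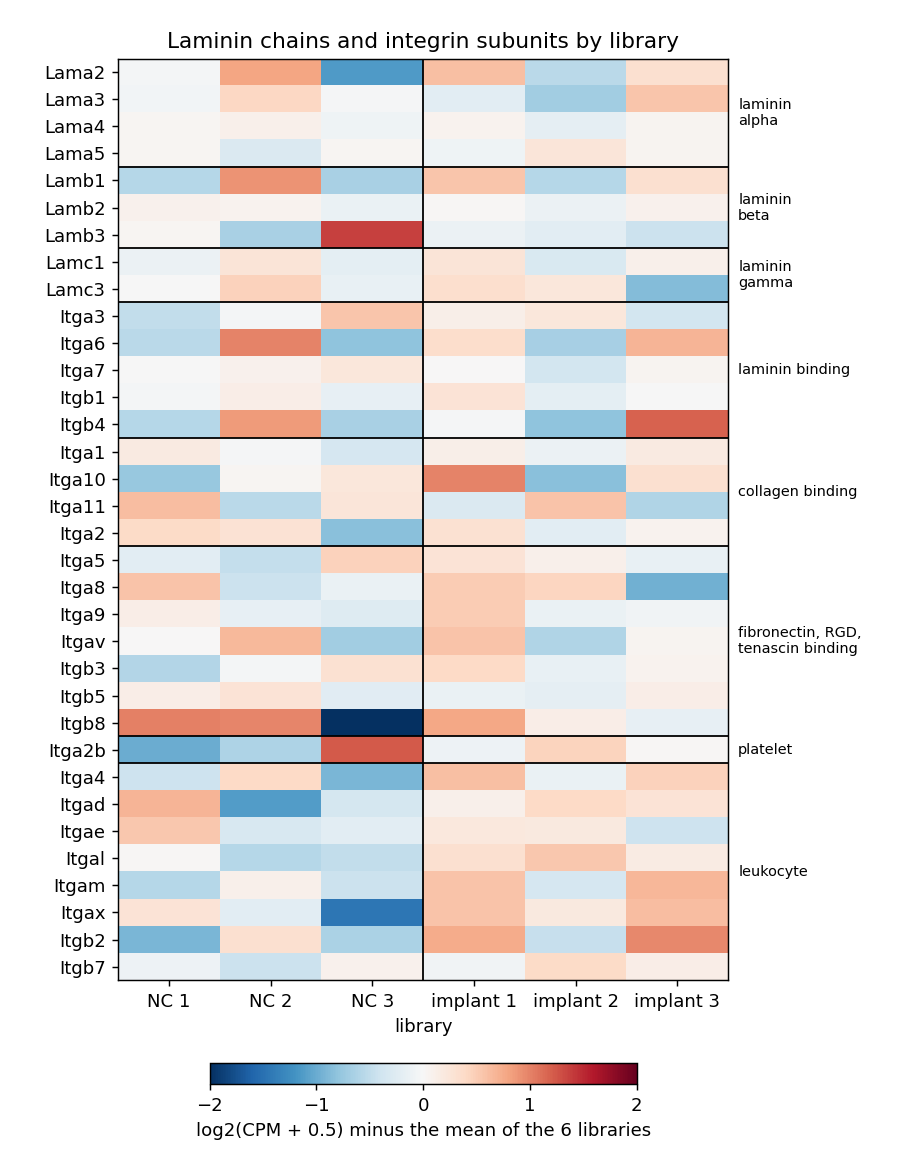
Each row is 1 of 34 tested members and each column 1 library; the colour is log2(CPM + 0.5) minus that member's mean over the 6 libraries, and colours stop at 2 log2 units either way. Itgb8 in NC 3 lies beyond the blue end of the scale, while the rows of Lama4, Lamb2 and Itgb1 are nearly white.

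Even and uneven members were also found among the subunits that bind laminin. Itgb1, the beta subunit shared by most matrix-binding integrins, stood at 653, 741 and 602 CPM in the NC libraries against 809, 586 and 668 in the implant libraries, a span of 1.38-fold. Itgb4 (ENSRNOG00000005580), the partner of Itga6 in the laminin receptor of myelinating Schwann cells and perineurium, stood at 970, 2602 and 919 CPM in the NC libraries against 1412, 826 and 3246 in the implant libraries. Implant 3 and NC 2 were highest, and implant 2 was lowest. Itga6 stood at 340, 976 and 281 CPM in the NC libraries against 630, 310 and 785 in the implant libraries, with NC 2, implant 3 and implant 1 again the 3 highest libraries. For Itgb4 the log2 fold change was 0.29 ± 0.64 (edgeR unadjusted p 0.669, adjusted p 1.0), and it was -0.42 without implant 3. For Itga6 it was 0.11, with a 95% interval from -1.29 to 1.52, and -0.19 without NC 3.

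The ratio between both chains of this receptor varied less than either chain. The ratio of Itga6 to Itgb4 counts ranged from 0.242 in implant 3 to 0.447 in implant 1, a span of 1.85-fold, where the level of each chain spanned 3.48-fold and 3.93-fold. The ratio of Itga6 to Itgb1 counts ranged from 0.466 in NC 3 to 1.32 in NC 2, a span of 2.83-fold. These ratios are not corrected for gene length, so only their differences between libraries can be read. The values of Itgb4 were not whole in the deposited table, nor were those of Lama1 and both Itgae entries, and what part of their reads was shared with other genes is not known here.

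Itga7, the laminin receptor subunit of muscle that Schwann cells also carry, stood at 121, 130 and 143 CPM in the NC libraries against 122, 93.9 and 126 in the implant libraries. Only implant 2 lay clearly below the others, and the log2 fold change was -0.21 ± 0.16 (edgeR unadjusted p 0.236, adjusted p 1.0). Summed skeletal muscle markers spanned 285-fold over the same libraries, from 30.0 CPM in NC 1 to 8534 in implant 3, while Itga7 spanned 1.52-fold. Itga3, a laminin receptor subunit of epithelium and other tissues, averaged 20.3 ± 7.65 CPM in NC libraries and 19.4 ± 4.05 in implant libraries (n = 3 each).

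Some members from several roles had their highest levels in the libraries rich in myelin RNA. The 3 libraries with the highest summed myelin markers (NC 2, implant 3 and implant 1) were also the 3 highest for 11 of the 35 members (31.4%), against 2266 of all 13999 genes (16.2%). The 11 were Lama2, Lama4, Lamb1, Lamc1, Itga6, Itgb1, Itgb4, Itgav, Itga4, Itgam and Itgb2, so 3 leukocyte subunits were among them. For Lama4, which spanned 1.22-fold, implant 3 stood at 461 CPM and NC 1, outside the top 3, at 457. Of the laminin-binding subunits, Itga7 and Itga3 were instead highest in NC 3. Itgb8, a partner of Itgav, was highest in NC 1. Marker sums of the Schwann lineage (690 to 1620 CPM in NC, 546 to 958 with the implant), of perineurial cells (183 to 600 and 265 to 579) and of epithelium (10.2 to 243 and 10.8 to 129) had the same 3 libraries on top. In the Schwann lineage list Sox10, Cdh19 and Egr2 had these 3 on top, but Foxd3 was highest in NC 1 at 24.0 CPM. S100b at 571 CPM in NC 3 and Erbb3 at 194 in NC 1 stood above implant 1 and implant 3. Of the perineurial markers, Cldn1 and Slc2a1 had these 3 on top, while Moxd1 was highest in NC 1 at 16.1 CPM and Krt23 in NC 3 at 1.16. In the epithelial sum Cdh1 alone gave 235 CPM in NC 2, 85.1 in implant 1 and 121 in implant 3. The keratins Krt8 and Krt18 were highest in NC 3. None of the 10 myelin, 6 Schwann lineage or 7 epithelial markers in the table was at 0 throughout, while Lypd2 was at 0 among 5 perineurial markers. The part of each cell type in these levels was not tested. Relative to the even chains, Lama2 to Lama4 counts ranged from 0.297 in NC 3 to 0.996 in NC 2, and Lamb1 to Lamb2 counts reached 1.40 in NC 2 and spanned 2.80-fold.

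**Figure D3:**
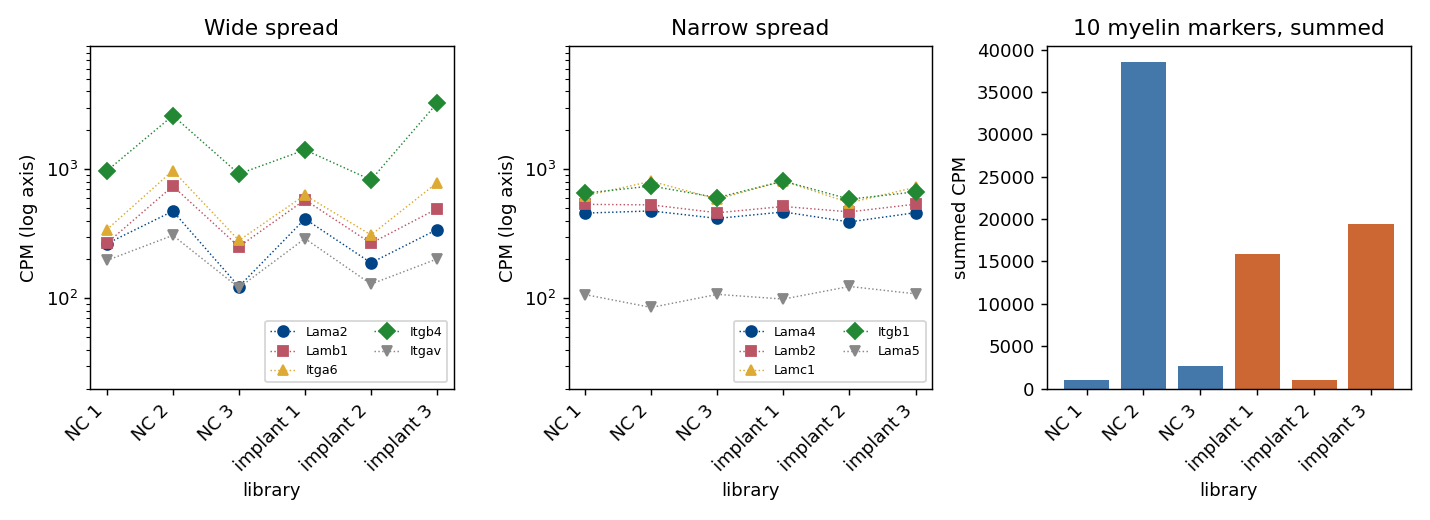
CPM per library is drawn on a log axis for 5 members that varied between libraries (left) and 5 that varied little (middle), beside the summed CPM of 10 myelin markers on a linear axis (right; NC blue, implant orange). Dotted lines join the points of 1 gene for tracking only; heights differ between genes also through gene length. NC 2, implant 1 and implant 3 are the 3 highest libraries of each member on the left and of the myelin markers. In the middle they are also the 3 highest for Lama4, Lamc1 and Itgb1, but not for Lamb2 and Lama5.

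Lama2, Lamb1 and Itgav placed the 6 libraries in exactly the same order, from NC 2 down through implant 1, implant 3, NC 1 and implant 2 to NC 3. That order was shared by 225 of the 13999 genes (1.61%), and 7 of the 595 pairs of tested members shared some order. The 250 bases before the start of these 3 genes are printed because their transcripts moved together. They are on the plus strand of the RefSeq build GRCr8, whose promoter table matched 28 of the 37 member symbols, at chr1:19491896-19492145 for Lama2, chr6:53562846-53563095 for Lamb1 and chr3:89245132-89245381 for Itgav. Capitals mark GAGGAA, a form of the ETS factor motif, and GCGNGGGCG, the motif of EGR factors such as the myelin regulator Egr2. They also mark ACAAAG, a SOX factor core. Each was searched on both strands, and other forms of these motifs were not searched.
Lama2: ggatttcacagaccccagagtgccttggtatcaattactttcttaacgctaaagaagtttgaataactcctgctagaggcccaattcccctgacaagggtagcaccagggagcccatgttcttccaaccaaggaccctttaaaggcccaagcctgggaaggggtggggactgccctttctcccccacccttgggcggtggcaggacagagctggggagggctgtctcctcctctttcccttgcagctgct
Lamb1: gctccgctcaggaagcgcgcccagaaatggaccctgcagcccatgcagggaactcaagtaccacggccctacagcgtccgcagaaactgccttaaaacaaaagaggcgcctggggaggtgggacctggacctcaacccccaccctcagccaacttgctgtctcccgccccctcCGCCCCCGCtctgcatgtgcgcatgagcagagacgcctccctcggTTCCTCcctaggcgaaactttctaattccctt
Itgav: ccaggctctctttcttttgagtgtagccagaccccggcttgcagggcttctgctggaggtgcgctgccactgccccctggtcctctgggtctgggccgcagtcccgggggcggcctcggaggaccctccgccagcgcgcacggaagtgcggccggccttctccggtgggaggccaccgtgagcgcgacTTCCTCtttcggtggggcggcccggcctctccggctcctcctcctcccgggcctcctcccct
Lamb1 held the EGR letters on the minus strand from -77 to -69 and the ETS letters on the minus strand from -32 to -27, counted from the RefSeq start. Itgav held the ETS letters on the minus strand from -62 to -57. No match to the 3 sets of letters lay in this window of Lama2. Of all 33469 promoters of this length, 23.3% held the ETS letters, 4.29% the EGR letters and 16.3% the SOX letters, so a match is a description of the sequence and not a binding site.

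None of the 4 collagen-binding subunits passed the test. Itga1, the broad receptor for collagen and laminin, averaged 52.7 ± 9.36 CPM in NC libraries and 56.8 ± 6.13 in implant libraries (n = 3 each), and its log2 fold change was 0.11 ± 0.17 (edgeR unadjusted p 0.552, adjusted p 1.0). Itga11, a collagen receptor of fibroblasts, stood at 83.0, 36.9 and 63.5 CPM in the NC libraries against 44.1, 79.7 and 35.1 in the implant libraries. It was high in NC 1 and implant 2 and low in NC 2 and implant 3, which is the order of the summed fibroblast markers in all 6 libraries. Those markers stood between 15019 and 19446 CPM in NC and between 12016 and 18899 with the conduit, and their part in the level of Itga11 was not tested. That order was shared by 63 of all genes tested (0.45%).

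Itga10, a collagen receptor of cartilage, had 17, 33 and 31 counts in the NC libraries against 71, 15 and 41 in the implant libraries. This gave a log2 fold change of 0.56 ± 0.66 (edgeR unadjusted p 0.433, adjusted p 1.0), and both the highest and the lowest library were of the conduit group. Itga2, a collagen receptor of epithelium and platelets, averaged 4.65 ± 2.03 and 4.79 ± 0.94 CPM (n = 3 each).

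The subunits that bind fibronectin, other ligands with the RGD peptide, or tenascin included the member with the widest spread. Itgb8 (ENSRNOG00000006569), which pairs with Itgav and frees active TGF-beta from its latent complex, stood at 506, 496 and 37.3 CPM in the NC libraries against 432, 277 and 225 in the implant libraries. NC 3 stood alone at the bottom, 13.6-fold below NC 1. The median span over the 13862 genes above 0 in every library was 1.67-fold, and that of Itgb8 was larger than the span of 96.2% of them. Of the 6 Schwann lineage markers, 4 were also lowest in NC 3 (Sox10, Erbb3, Cdh19 and Foxd3), with Sox10 at 21.8 CPM against 122 to 243 in the other 5 libraries. Egr2 was lowest in NC 1 and S100b in implant 2, and S100b stood at 571 CPM in NC 3, above every library but NC 2. The sum of the 6 was 704 CPM in NC 3, above NC 1 at 690 and implant 2 at 546. In NC 3, S100b made up 571 CPM of that sum. Summed markers of repair and non-myelinating Schwann cells were lowest in NC 3 at 93.0 CPM and highest in NC 1 at 662. Of those 9 markers, 5 were lowest in NC 3, against 1 of the 10 myelin markers. NC 3 was also the lowest library for 12 of the 35 tested members (34.3%) and for 3474 of all 13999 genes tested (24.8%). The part of Schwann cells in the level of Itgb8 was not tested. Its log2 fold change of -0.15 had a 95% interval from -2.25 to 1.94, and became 0.25 without NC 1.

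Itgav, the alpha partner of Itgb3, Itgb5, Itgb6 and Itgb8, stood at 197, 308 and 121 CPM in the NC libraries against 291, 129 and 202 in the implant libraries. NC 3 was lowest here too, and the count ratio of Itgb8 to Itgav was 2.58 in NC 1 but 0.309 in NC 3, so Itgb8 was low in that library also relative to its partner. Itga9, a tenascin and osteopontin receptor subunit, stood at 34.9, 28.3 and 26.5 CPM in the NC libraries against 45.5, 29.0 and 30.4 in the implant libraries. For Itga9 the log2 fold change was 0.22 ± 0.22 (edgeR unadjusted p 0.341, adjusted p 1.0). Itgb5, a vitronectin receptor subunit, averaged 151 ± 25.7 CPM in NC libraries and 138 ± 17.1 in implant libraries (n = 3 each), with a log2 fold change of -0.12 ± 0.18 (edgeR unadjusted p 0.507, adjusted p 1.0).

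The remaining subunits of this role did not pass the test either, or were too low for it. Itga5, the fibronectin receptor subunit, averaged 80.1 ± 28.0 CPM in NC libraries and 86.5 ± 12.8 in implant libraries. Itgb3, which serves platelets, vessels and osteoclasts, averaged 19.6 ± 6.04 and 22.3 ± 4.38 CPM. Itga8, which binds nephronectin, ranged from 12.0 to 24.6 CPM in NC libraries and from 8.20 to 23.5 in implant libraries (n = 3 in each group here). Itgb6, an epithelial subunit, was below the filter, with 4, 4 and 8 counts in the NC libraries against 4, 12 and 57 in the implant libraries.

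Itga2b, which with Itgb3 forms the fibrinogen receptor of platelets, stood at 11.4, 15.0 and 55.4 CPM in the NC libraries against 21.8, 32.0 and 23.8 in the implant libraries. NC 3 was highest, and the 3 conduit libraries lay between NC 2 and NC 3. Its log2 fold change was -0.07 ± 0.61 (edgeR unadjusted p 0.909, adjusted p 1.0), and became 0.97 without NC 3. The summed platelet and megakaryocyte markers, with 8 of 9 in the table and Itga2b left out, stood at 54.3, 62.9 and 193 CPM in the NC libraries against 94.7, 144 and 98.5 in the implant libraries. Both had the same order of the 6 libraries, as did 47 of all genes tested (0.336%). Pf4, which macrophages can also express, stood at 49.1 to 160 CPM, and the platelet-restricted Gp9 stood at 0.467 to 3.10 CPM. The part of blood in the tissue was not tested.

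None of the leukocyte integrins passed the test, although most of their values lay on the implant side. The log2 fold change was positive for 7 of the 8 tested rows and its median was 0.60, against -0.01 over all genes. That median was 0.42 without NC 3 and 0.69 without NC 2. Itgal (ENSRNOG00000017980), the alpha subunit of the receptor by which lymphocytes and other leukocytes bind ICAM proteins, stood at 29.6, 19.5 and 20.7 CPM in the NC libraries against 36.7, 42.4 and 32.8 in the implant libraries. It was the only member whose groups did not overlap, 1 of 35 on the higher side where 2.81% of all genes were so placed, and 0 of 35 on the lower side against 2.88%. The log2 fold change of Itgal was 0.68 ± 0.20 (edgeR unadjusted p 0.0143, adjusted p 1.0). The unadjusted p was 0.0537 without implant 2, and the log2 fold change lay between 0.57 and 0.91 whichever library was left out.

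Itgb2, the common beta subunit of the leukocyte integrins Itgal, Itgam, Itgax and Itgad, stood at 44.2, 106 and 53.9 CPM in the NC libraries against 140, 61.0 and 164 in the implant libraries. NC 2 lay above implant 2, so the groups overlapped. The 95% interval of its log2 fold change, 0.84, ran from -0.32 to 2.00. Itgam, the alpha subunit of the complement receptor of macrophages and neutrophils, stood at 32.9, 53.1 and 36.6 CPM in the NC libraries against 73.2, 39.0 and 78.5 in the implant libraries. Its log2 fold change was 0.64 ± 0.32 (edgeR unadjusted p 0.0912, adjusted p 1.0).

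Itgam and Itgb2 had the same order of the libraries, from implant 3 down through implant 1, NC 2, implant 2 and NC 3 to NC 1, which 16 of all genes tested shared (0.114%). Their count ratio stayed between 0.480 and 0.743, a span of 1.55-fold. Itgal did not follow: its ratio to Itgb2 ranged from 0.185 in NC 2 to 0.695 in implant 2, a span of 3.77-fold. The 250 bases before the RefSeq start of Itgam, on the plus strand of GRCr8 at chr1:192089342-192089591, are printed because this gene moved with Itgb2. Capitals again mark the ETS letters GAGGAA, which the myeloid factor encoded by Spi1 also recognises.
Itgam: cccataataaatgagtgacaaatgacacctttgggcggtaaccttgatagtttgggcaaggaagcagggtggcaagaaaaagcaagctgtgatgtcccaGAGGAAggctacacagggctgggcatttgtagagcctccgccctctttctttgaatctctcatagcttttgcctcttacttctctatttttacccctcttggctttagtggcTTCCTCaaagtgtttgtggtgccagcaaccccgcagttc
They occurred on the plus strand from -151 to -146 and on the minus strand from -39 to -34. As 23.3% of all promoters of this length held these letters, the matches are a description.

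**Figure D4:**
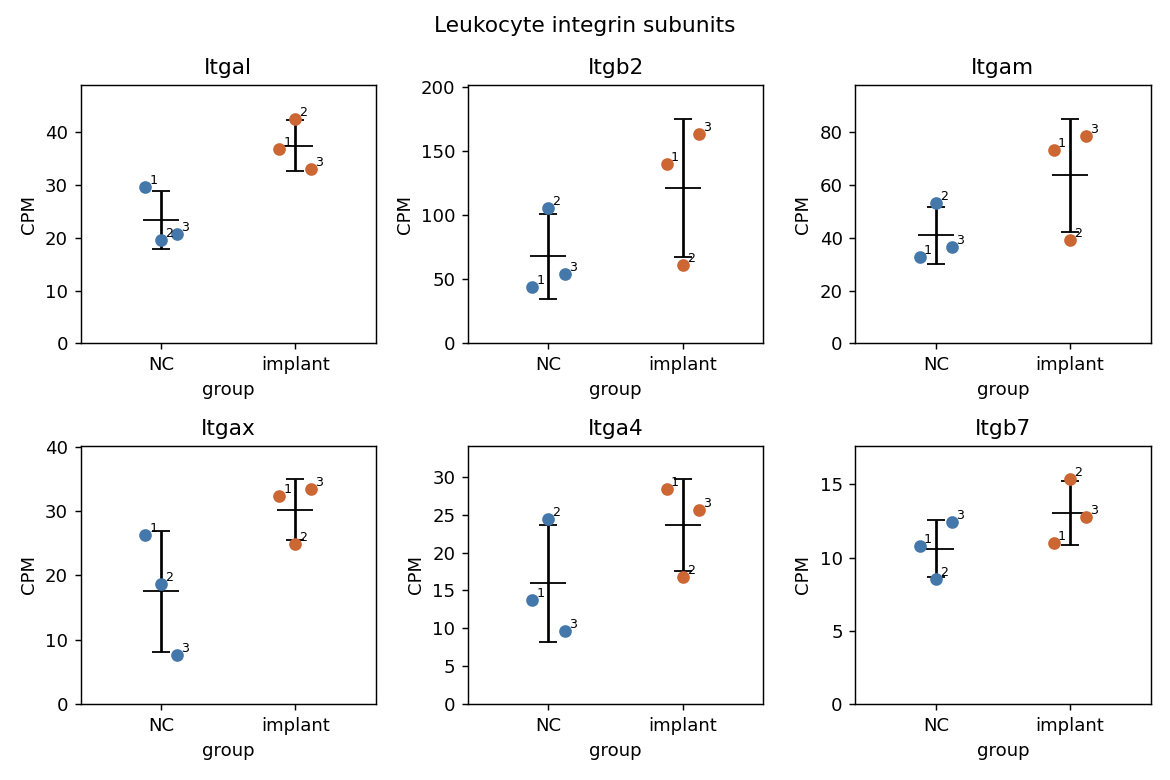
CPM of 6 leukocyte integrin subunits is plotted by group, with 1 numbered point per library (NC blue, implant orange) and bars for the mean and SD of 3 libraries. The points of Itgal do not overlap between the groups, while implant 2 falls among the NC libraries for Itgb2, Itgam, Itgax and Itga4.

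Itgax, an alpha subunit of dendritic cells and macrophages, stood at 26.3, 18.7 and 7.66 CPM in the NC libraries against 32.4, 24.9 and 33.5 in the implant libraries. NC 1 lay above implant 2, NC 3 was far below the rest, and the log2 fold change was 0.78 with a 95% interval from -0.26 to 1.83. Itga4, which pairs with Itgb1 or Itgb7 and binds Vcam1 and fibronectin, averaged 15.9 ± 7.66 CPM in NC libraries and 23.6 ± 6.07 in implant libraries. Itgb7, the lymphocyte beta subunit, averaged 10.6 ± 1.95 and 13.0 ± 2.17 CPM (n = 3 in each group). Its order of the libraries was that of the summed neutrophil markers, which 17 of all genes tested shared (0.121%). The part of neutrophils in the level of Itgb7 was not tested.

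Itgae, which binds E-cadherin on epithelium, averaged 7.67 ± 2.85 and 7.48 ± 1.78 CPM in its tested entry, and was the 1 leukocyte subunit with a negative log2 fold change (-0.04). Its other entry had at most 3 counts in any library and was not tested, and reads of both entries cannot be told apart with certainty. Itgad had 47, 6 and 13 counts in the NC libraries against 25, 35 and 29 in the implant libraries. It is a close relative of Itgax, whose name RefSeq lists as a synonym of Itgad, so its count is uncertain.

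Markers of several leukocyte types were measured beside these subunits. Summed T and NK cell markers (10 of 12 in the table) ranged from 19.3 to 53.9 CPM in NC and from 30.8 to 76.2 with the conduit. Neutrophil markers (10 of 10) ranged from 53.6 to 312 CPM in NC and from 224 to 357 with the conduit, and monocyte and macrophage markers (12 of 12) from 2023 to 2819 and from 2488 to 3403. None of these markers was at 0 in all libraries, and the summed ranges overlapped for each of the 3 lists. Lyz2 alone made up 867 to 1910 CPM of the macrophage sum. Taken singly, the groups did not overlap for 1 of 12 macrophage, 1 of 10 neutrophil and 0 of 10 T and NK cell markers. Both of these markers were higher with the implant. Of all genes tested, 2.81% were so placed and 2.88% lay apart on the lower side. Ptprc, the pan-leukocyte marker on the macrophage list, stood at 76.5, 78.1 and 99.0 CPM in the NC libraries against 102, 115 and 104 in the implant libraries (log2 fold change 0.34 ± 0.14, edgeR unadjusted p 0.0552, adjusted p 1.0). Csf3r, the receptor for granulocyte growth factor on the neutrophil list, stood at 8.15, 4.91 and 21.6 CPM in the NC libraries against 25.5, 41.5 and 21.8 in the implant libraries. By its sum, NC 3 was the highest NC library in all 3 lists. Itgal, Itgb2, Itgam, Itgax, Itga4, Itgad and the tested Itgae entry were each higher in another NC library. Itgb7 was highest in NC 3 among NC libraries, at 12.4 CPM. Single markers did not all follow their sum. Csf1r, C1qa and Mrc1 were highest in NC 3 among NC libraries, but Lyz2, at 1330 CPM, Cd68 and Mmp9 were highest in NC 2. The part of cell number in the levels of leukocyte integrins was not tested.

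Related genes were taken from 5 lists of other basement membrane components, other laminin receptors, other matrix ligands, ligands of leukocyte integrins, and the proteins that activate integrins and anchor them to actin. Of 92 tested genes, edgeR's quasi-likelihood test called 0 higher and 0 lower, none had an unadjusted p under 0.05, and DESeq2 called none. Among other basement membrane components, 14 of 18 log2 fold changes were negative, with a median of -0.08. Col4a2, a chain of the type IV collagen network to which laminin is tied, averaged 1297 ± 455 CPM in NC libraries and 1069 ± 24.2 in implant libraries. Npnt, which encodes nephronectin, the ligand of Itga8, averaged 26.6 ± 2.18 and 22.8 ± 4.33 CPM. Frem1, a basement membrane protein, averaged 16.2 ± 2.72 and 13.7 ± 2.57 CPM (n = 3 in each group here and below).

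For other laminin receptors, 7 of 17 log2 fold changes were positive and the median was -0.03. Sdc1, a heparan sulphate proteoglycan that binds laminin, averaged 23.1 ± 4.18 CPM in NC libraries and 30.7 ± 7.90 in implant libraries. Sgce, a sarcoglycan, averaged 76.2 ± 20.9 and 68.4 ± 9.82 CPM. Other matrix ligands had 9 of 18 positive values and a median of -0.02. Thbs2, a thrombospondin, averaged 392 ± 139 and 531 ± 365 CPM, Ltbp1, which holds latent TGF-beta, 126 ± 32.9 and 157 ± 34.3 CPM, and Edil3, an RGD ligand, 9.39 ± 8.72 and 4.54 ± 2.36 CPM. In each case the groups overlapped.

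The ligands of leukocyte integrins had 5 of 8 positive values and a median of 0.05. Icam2, an endothelial ligand of Itgal, averaged 33.1 ± 15.2 CPM in NC libraries and 39.7 ± 9.73 in implant libraries, and F11r, a junction protein that Itgal also binds, averaged 94.5 ± 37.9 and 83.8 ± 5.21 CPM. Icam5 was low, at 0.573 ± 0.209 and 0.885 ± 0.251 CPM. The groups overlapped for each of the 8.

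Among proteins of integrin activation and adhesion, 17 of 31 log2 fold changes were positive, with a median of 0.02. Apbb1ip, the adaptor through which Rap proteins activate leukocyte integrins, stood at 28.0, 25.2 and 29.3 CPM in the NC libraries against 30.8, 33.0 and 33.3 in the implant libraries. Parvg, the parvin of blood cells, stood at 9.24, 8.38 and 5.06 CPM in the NC libraries against 14.7, 10.1 and 9.49 in the implant libraries. These were the 2 of 92 list genes whose groups did not overlap, both on the higher side, where 2.81% of all genes lay. Their log2 fold changes were 0.23 ± 0.11 and 0.59 ± 0.30 (edgeR unadjusted p 0.0765 and 0.0944, adjusted p 1.0 for both). Ptk2b, a kinase related to focal adhesion kinase, averaged 28.9 ± 7.76 CPM in NC libraries and 39.5 ± 3.90 in implant libraries, and its groups overlapped.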

How the data were processed

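RNA was measured in 3 NC and 3 GDNF-Gel/HA-Mg libraries, grouped by their titles. The authors deposited 1 table, which gives the estimated count of each gene and shows no normalisation in its totals. The library kit named in the labels does not mark strand, so overlapping genes on opposite strands cannot be told apart. Bowtie2 2.2.8, DESeq2, HISAT2 and StringTie 1.3.1 appear in the submitters' processing notes without their roles. What counted the reads, and on which genome build and annotation, is not given in the sources used here. Columns were matched by name. The treated columns are labelled Gel_HA-Mg without GDNF, and were taken as the only group that holds this material. Counts were rounded, filtered with filterByExpr (13999 of 23091 genes stayed) and scaled by TMM. edgeR 4.0.16 (quasi-likelihood, two-sided, group as the only term, R 4.3.3) was fitted to the whole table, with Benjamini-Hochberg adjustment over all genes tested and a threshold of 0.05.

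CPM uses the TMM-scaled library size. Standard errors were derived from the fold change and its F statistic, which makes the 95% intervals approximate. Total counts were 15897850 to 18491379, and counting error is small beside the spread between libraries except for members with few counts. Every pair of libraries within a group differed by more than sampling noise.

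Members were found by symbol, and members, lists and tests were chosen with earlier results of these data known. Full statistics are given for the 2 members of each role with the smallest unadjusted p and for any member whose groups do not overlap. Up to 3 genes are named per list of related genes, by smallest unadjusted p. Single genes that these rules name are not all reported here. For a list gene with more than 1 row, the row with the most counts was taken. Library orders, count ratios of partner chains and promoters were chosen for display after values were seen, and carry no test. The gene test was tested on simulated data. Alternatives were RLE scaling, DESeq2 1.42.0, no filter, a block for the replicate number, and the omission of any 1 library. Figures were drawn with matplotlib 3.10.9.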

Additional observations from a re-analysis of the deposited data

How the results depend on the processing

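No alternative called a laminin chain, an integrin subunit or one of the 92 related genes. For all genes tested, edgeR called 0 under every alternative run, while DESeq2 called 11. The number of leukocyte integrin rows with a positive log2 fold change, counted under the alternatives after seeing the data, was 6 to 8 of 8. The same-numbered libraries of the 2 groups did not vary together (correlations of their deviations 0.10, -0.72 and 0.06). No NC library correlated best with its own number. With 3 libraries per group, which differed widely in tissue markers, this check cannot exclude a pairing by number. With the replicate block, edgeR called 0 genes and the sign changed for Itgav (0.0367), Itgb8 (0.42), Itga8 (-0.0134) and Itga2b (0.29).

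Of 350 member values recomputed, 298 kept their direction and 52 changed it, 48 of these when 1 library was left out. No value passed the threshold. Leaving out each library in turn gave log2 fold changes of -0.0206 to 0.25 for Itga1, -0.0354 to 0.98 for Itga10, -0.63 to 0.0918 for Itga11, -0.28 to 0.29 for Itga2, -0.43 to 0.97 for Itga2b, -0.27 to 0.26 for Itga3, -0.0746 to 0.42 for Itga5, -0.19 to 0.89 for Itga6, -0.17 to 0.43 for Itga8, -0.0129 to 1.41 for Itgad, -0.21 to 0.32 for Itgae, -0.32 to 0.38 for Itgav, -0.073 to 0.16 for Itgb1, -0.0111 to 0.42 for Itgb3, -0.42 to 0.95 for Itgb4, -0.69 to 0.25 for Itgb8, -0.23 to 0.69 for Lama2, -0.57 to 0.11 for Lama3, -0.0866 to 0.0503 for Lama4, -0.17 to 0.78 for Lamb1, -0.073 to 0.0538 for Lamb2, -1.21 to 0.0106 for Lamb3, -0.0631 to 0.20 for Lamc1 and -0.35 to 0.15 for Lamc3. The median over all genes moved by less than 0.1 under every scaling, and few counts limit Lamb3, Itga2, Itga10 and Itgad.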
